A study of Mus musculus with 8 samples.

Results

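Hedgehog signalling was followed through 9 of its core genes (Dhh, Ihh, Ptch1, Smo, Gli1, Gli2, Gli3, Hhip and Sufu) on the 8 arrays of the series. The members were chosen by name and found by matching their mouse Entrez gene IDs to the row names of the deposited value table, and all 9 were among the 24232 genes with such an ID. The cells were primary follicular cells, labelled as mostly granulosa cells, from preantral follicles of 8-week-old Swiss mice, 5 of which were pooled for each replicate. They were grown for 9 days, ending in hormone-free medium with charcoal-treated serum, and every culture also received a pDsRed reporter plasmid with its siRNA. Cells received control siRNA, a non-targeting pool, or FOXL2 siRNA, a pool against Foxl2, at 12 pmol for 24 h, and each siRNA was combined with vehicle or E2. The 4 resulting groups, called control vehicle, control E2, FOXL2 vehicle and FOXL2 E2 below, had 2 arrays apiece. E2 was 100 nM 17β-estradiol, and vehicle was its ethanol solvent, both for the 10 h before lysis. FOXL2 itself is a forkhead transcription factor that granulosa cells express.

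In this pathway a secreted ligand (Dhh, Ihh or Shh) binds the receptor Ptch1, which otherwise holds the transducer Smo inactive. Once released, Smo frees the GLI transcription factors from Sufu, and Gli1, Ptch1 and Hhip are themselves switched on by them, so that they serve as a readout of signalling in the receiving cell. In the ovary, granulosa cells are known to make Dhh and Ihh, and the theca and stromal cells around the follicle are known to respond to them. In the testis, Dhh is made by Sertoli cells, the counterpart of granulosa cells.

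Of the 9 members, Dhh was higher in the arrays labelled as FOXL2 siRNA with either treatment, and Smo was lower over both treatments and with E2. These are the members whose change passed the test, and their promoter windows are shown for that reason. The windows run from 250 bases before to 50 after the start of the gene, are taken from RefSeq on GRCm38.p6 and are printed 5′ to 3′ on the strand of the gene. The Dhh window is chr15:98898491-98898790 on the minus strand, and that of Smo is chr6:29735247-29735546 on the plus strand. Capitals mark a match to any motif searched.
Dhh: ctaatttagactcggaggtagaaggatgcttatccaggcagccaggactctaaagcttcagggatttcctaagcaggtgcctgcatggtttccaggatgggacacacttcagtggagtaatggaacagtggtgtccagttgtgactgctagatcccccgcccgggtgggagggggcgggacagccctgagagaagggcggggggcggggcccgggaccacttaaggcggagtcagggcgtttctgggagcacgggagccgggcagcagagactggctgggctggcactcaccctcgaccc
Smo: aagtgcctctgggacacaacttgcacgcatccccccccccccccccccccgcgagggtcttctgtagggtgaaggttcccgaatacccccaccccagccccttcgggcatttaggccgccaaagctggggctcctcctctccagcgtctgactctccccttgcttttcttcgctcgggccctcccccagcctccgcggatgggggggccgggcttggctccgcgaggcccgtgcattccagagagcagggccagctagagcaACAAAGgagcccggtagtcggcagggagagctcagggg
Windows of 8 members were searched on both strands, all but that of Gli1. The letters searched were forkhead words (GTAAACA or ATAAACA and also GTAAATA or ATAAATA), a GLI word (GACCACCCA), a GATA word (AGATAA) and SOX words (ACAATG or ACAAAG). The only match among the 8 windows was a SOX word in that of Smo, 12 to 17 bases after the start, and no motifs overlapped. Of 32851 mouse promoter windows of this length, 28.6% held a SOX word, 11.2% the GATA word and 0.253% the GLI word, and 4939 windows held a forkhead word. A match is a description of letters only, and the absence of one says nothing of a factor that binds elsewhere.

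Across genes, replicate arrays correlated at 0.989 to 0.992. Foxl2, the target of the siRNA, gave readings that went apart. Its bright probe, A_55_P2037732, differed by 0.18 on the log2 scale over both treatments (SE 0.10, limma adjusted p = 0.33), and its dim probe, A_55_P2041668, by -0.97 (SE 0.19, limma adjusted p = 0.0164). At the level of the gene the Foxl2 difference was 0.18 (limma adjusted p = 0.334), so the groups are called arrays labelled as FOXL2 siRNA, and every direction below rests on the labels. Fst, which encodes follistatin and is a known target activated by FOXL2, fell by 2.02 over both treatments (SE 0.13, limma adjusted p = 0.000226), and Esr2, the estrogen receptor beta, fell by 0.46 (limma adjusted p = 0.0167). Of the 9 granulosa markers tested, these 2 were lower and 1 was higher over both treatments, where 12.6% of all genes tested were called. The higher one was Inhbb, which rose by 0.80 (SE 0.16, limma adjusted p = 0.0185). The median change of the 9 was -0.04. Of 11 granulosa markers, 8 were well above background on all 8 arrays. Fshr, the receptor for follicle-stimulating hormone, and Amh were so on 0. Of 8 oocyte markers, 7 were not well above background on any array, nor were Ptprc, Lyz2 and C1qa among 6 macrophage markers, Cdh5 and Tek among 5 endothelial markers or Pdgfra and Tcf21 among 7 stromal markers. Markers of these other cells were also present, with 5 of the 7 stromal, 3 of the 5 endothelial and 2 of the 6 macrophage markers well above background on all 8 arrays. The stromal collagen gene Col3a1 rose by 0.75 over both treatments (limma adjusted p = 0.000831), the only one called among 5 stromal, 3 endothelial and 3 macrophage markers tested. The summed scaled signal of the stromal markers was 14911 to 17611 in the control vehicle group, 19732 to 20033 in the FOXL2 vehicle group, 14890 to 19727 in the control E2 group and 19000 to 19765 in the FOXL2 E2 group, and its part in the changes below was not tested. Dcn gave 28.2 to 63.9% of the stromal sum and was not called (0.31 over both treatments, limma adjusted p = 0.616). Without Dcn the groups overlapped. The sum was then 5609 to 12648 in the control vehicle group and 7550 to 13769 in the FOXL2 vehicle group. With E2 it was 5939 to 13785 in the control E2 group and 7130 to 13018 in the FOXL2 E2 group. Acta2 had the highest signal in that sum, with group means of 12.62 to 12.72 and SDs of 0.99 to 1.17. The overlap thus says little of the other stromal markers. Over both treatments Col1a1 differed by 1.10, Lum by -0.57 and Acta2 by -0.04, none called (limma adjusted p = 0.0739, 0.65 and 0.975). Of the theca markers, Lhcgr was well above background on 0 arrays and Cyp17a1, Star, Cyp11a1 and Nr2f2 on 8. In these RNA extracts, fewer cells of a type and less RNA per cell cannot be told apart.

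Detection came first. Values are log2 of the processed intensity after scaling each array to its 75th percentile, and they compare arrays for one gene but not one gene with another. The sums over marker lists, and a gene's share of a sum, thus depend on how bright each gene's probes are. Dhh, Ihh, Ptch1, Smo, Gli3 and Sufu were well above background on 8 of 8 arrays, and these 6 passed the filter of a median scaled signal of at least 10. Gli1, Gli2 and Hhip did not pass it, with medians of 7.1, 3.5 and 3.2, and were not tested. Both GLI factors that act mainly as activators and the feedback inhibitor Hhip were thus near the limit of the arrays. Gli1 and Hhip were each well above background on 1 array and Gli2 on 0.

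**Figure D1:**
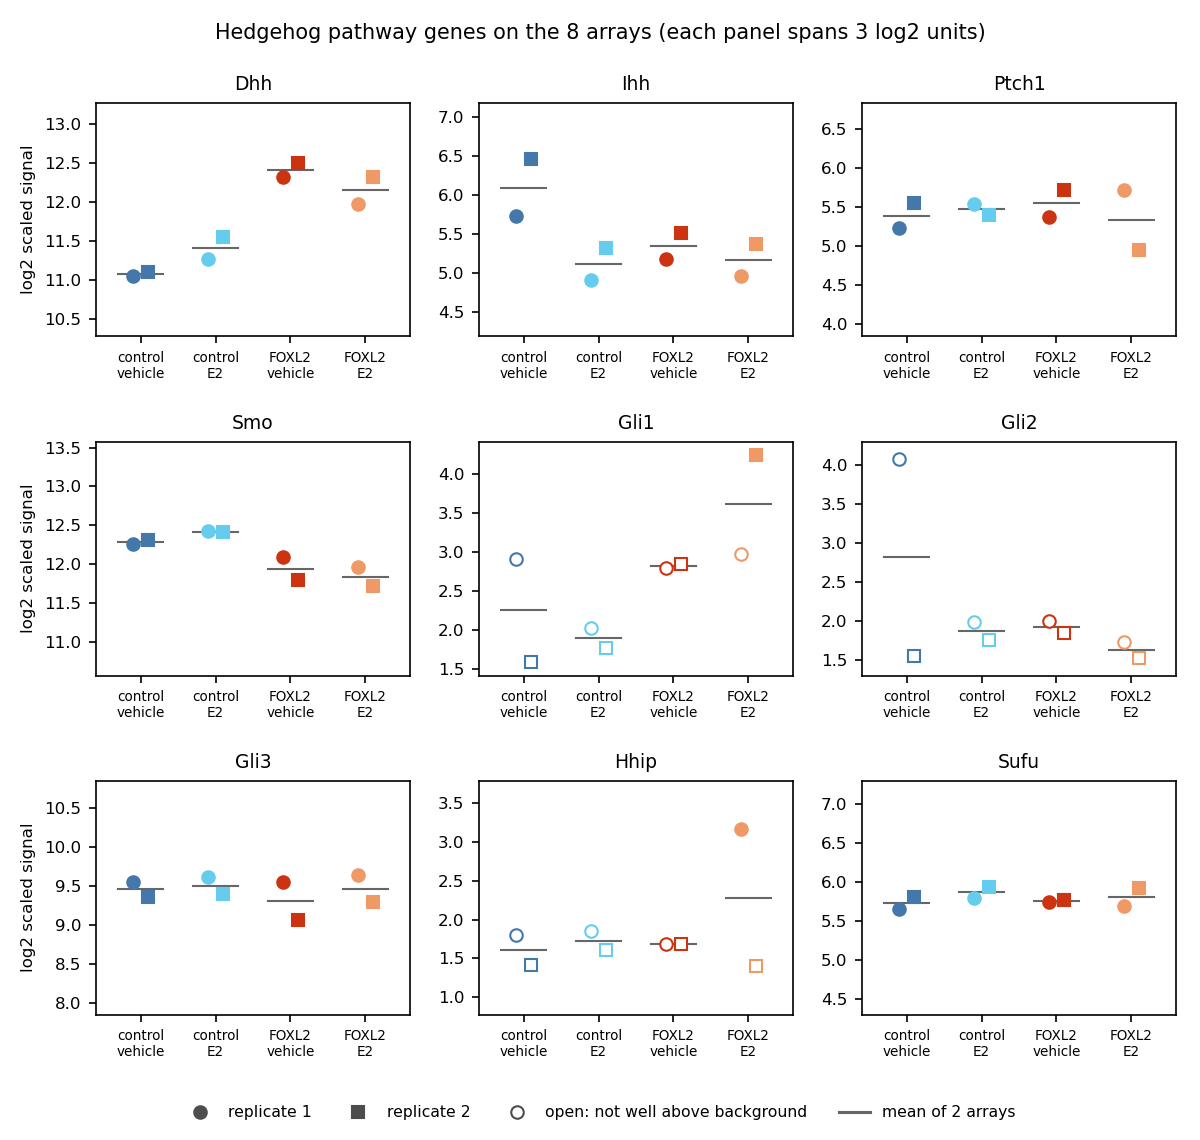
Log2 scaled signal of the 9 Hedgehog genes on each array, by siRNA and treatment, with circles for replicate 1, squares for replicate 2, open symbols for values not well above background and a bar for the mean of 2 arrays. Every panel spans 3 log2 units. The 4 arrays labelled as FOXL2 siRNA lie at 11.98 to 12.50 for Dhh, above the 11.05 to 11.55 of control siRNA, and at 11.72 to 12.09 for Smo, below the 12.26 to 12.43 of control siRNA.

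Among the ligands, Dhh (Entrez 13363) separated the siRNAs. With vehicle, its signal was 11.05 and 11.10 with control siRNA (mean 11.07 ± 0.03, SD, n = 2) and 12.32 and 12.50 in the arrays labelled as FOXL2 siRNA (12.41 ± 0.12). With E2, it was 11.27 and 11.55 with control siRNA (11.41 ± 0.20) and 11.98 and 12.32 in the arrays labelled as FOXL2 siRNA (12.15 ± 0.24). All 4 arrays labelled as FOXL2 siRNA were thus above all 4 of control siRNA. Dhh rose by 1.34 with vehicle, or 2.53-fold (SE 0.14, limma adjusted p = 0.00265), and by 0.74 with E2, or 1.67-fold (SE 0.14, limma adjusted p = 0.0292). Over both treatments it rose by 1.04 (SE 0.10, limma adjusted p = 0.00084). The call with vehicle was kept in each of the 8 fits that left out 1 array. With E2 it was lost without replicate 1 of the control E2 group (0.60, limma adjusted p = 0.179), without replicate 2 of that group (0.88, limma adjusted p = 0.0654) and without replicate 2 of the FOXL2 E2 group (0.57, limma adjusted p = 0.163). It was also lost with no filter on low values, with no intensity trend and with only the groups compared in the fit (limma adjusted p = 0.0527, 0.0807 and 0.0767).

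The response of Dhh to E2 did not pass the test with either siRNA. Both E2 arrays lay above both vehicle arrays with control siRNA, by 0.34 on average (95% interval 0.01 to 0.66, limma adjusted p = 1.0). In the arrays labelled as FOXL2 siRNA the difference was -0.26 (95% interval -0.59 to 0.07, limma adjusted p = 1.0), and 11.98 and 12.32 with E2 did not exceed 12.32 and 12.50 with vehicle. The difference between these E2 effects was -0.60 (SE 0.20, limma adjusted p = 0.762), against an unadjusted p of 0.0181 in the same limma fit, so it was not called. With the replicate number as a block it was called (limma adjusted p = 0.0294).

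Some other genes that mark Sertoli cells were also higher. Of the 6 Sertoli markers tested from a list of 7, 3 were higher in the arrays labelled as FOXL2 siRNA over both treatments, and 0 were lower, where 12.6% of all genes tested were called. The transcription factor Sox9 rose by 2.05 over both treatments (SE 0.15, limma adjusted p = 0.000302), and Sox8 rose by 1.72 (SE 0.13, limma adjusted p = 0.000332). The third was Gata1, with means of 2.48 in the control vehicle group and 1.71 in the control E2 group. Its means were 5.19 in the FOXL2 vehicle group and 4.81 in the FOXL2 E2 group. Gata1 was well above background on 0 arrays of either control group. It thus passed the filter only through the arrays where it was high, and its call carries no weight beside those of Sox9 and Sox8. The other 3 tested did not pass, with differences of 0.69 for Ptgds, 0.59 for Cldn11 and -0.48 for Dmrt1 (limma adjusted p = 0.157, 0.322 and 0.0694). The summed scaled signal of the list was 729 to 1187 in the control vehicle group, 960 to 1119 in the control E2 group, 1593 to 2217 in the FOXL2 vehicle group and 1427 to 1956 in the FOXL2 E2 group. Ptgds gave 55.9 to 77.0% of this sum. Without Ptgds the sum was 247 to 273 in the control vehicle group and 270 to 321 in the control E2 group. It was 699 to 703 in the FOXL2 vehicle group and 518 to 597 in the FOXL2 E2 group. That sum still held Sox9, Sox8 and Gata1, so it adds nothing apart from their calls. Amh, a defining marker of the same list, was well above background on 0 of 8 arrays. The part of cells with Sertoli markers in the change of Dhh was not tested. Over the 8 arrays, the genes with a pattern most like that of Dhh among 12626 were Ccn4 (Pearson r = 0.996), Gulp1 (0.996) and Sox9 (0.994). These correlations describe 8 arrays that share 4 groups, and carry no test.

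Ihh (Entrez 16147) encodes the other ovarian ligand. With control siRNA, its log2 signal was 5.73 and 6.47 with vehicle (6.10 ± 0.52) and 4.91 and 5.32 with E2 (5.12 ± 0.29). In the arrays labelled as FOXL2 siRNA it was 5.18 and 5.52 with vehicle (5.35 ± 0.24) and 4.97 and 5.38 with E2 (5.17 ± 0.28). The arrays of the control vehicle group held the highest values, and the other groups overlapped one another. The E2 effect with control siRNA was -0.98 (95% interval -1.71 to -0.25), with an unadjusted p of 0.0146 and an adjusted p of 0.853 in the limma fit. The difference between siRNAs with vehicle was -0.75 (95% interval -1.47 to -0.02, limma adjusted p = 0.241), and with E2 it was 0.06 (95% interval -0.67 to 0.79, limma adjusted p = 0.955). Neither was called. The genes most like Ihh over the arrays were Yy1 (Pearson r = 0.98), Cry2 (0.968) and Serpina1e (0.95).

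The receptor Ptch1 (Entrez 19206), which both binds the ligands and is induced by the pathway, did not separate the groups. Its log2 signal was 5.23 and 5.56 in the control vehicle group, 5.55 and 5.40 in the control E2 group, 5.38 and 5.73 in the FOXL2 vehicle group, and 5.73 and 4.96 in the FOXL2 E2 group. The arrays of the last group differed more from each other (SD 0.55) than those of any other group. The siRNA effect was 0.16 with vehicle (95% interval -0.53 to 0.86, limma adjusted p = 0.835) and -0.13 with E2 (95% interval -0.83 to 0.57, limma adjusted p = 0.887). Changes within these intervals could not be told from none. Of its 2 probes, A_55_P2107292 was well above background on all 8 arrays and A_52_P598605 on 0, so the gene's value follows 1 probe. The genes most like Ptch1 were Rnf24 (Pearson r = 0.936), Cd4 (0.933) and Dcdc2b (0.924).

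Smo (Entrez 319757), the transducer downstream of Ptch1, was well above background on every array. With vehicle, its log2 signal was 12.26 and 12.31 with control siRNA (12.29 ± 0.03) and 12.09 and 11.80 in the arrays labelled as FOXL2 siRNA (11.95 ± 0.21). With E2, it was 12.43 and 12.41 with control siRNA (12.42 ± 0.01) and 11.97 and 11.72 in the arrays labelled as FOXL2 siRNA (11.85 ± 0.18). All 4 arrays labelled as FOXL2 siRNA were below all 4 of control siRNA. Smo fell by 0.57 with E2, a level 1.49-fold lower (SE 0.12, limma adjusted p = 0.0436), and by 0.46 over both treatments (SE 0.09, limma adjusted p = 0.0132). With vehicle alone the change was -0.34 (95% interval -0.62 to -0.05, limma adjusted p = 0.173) and was not called. It was called with the replicate number as a block (limma adjusted p = 0.0294). E2 itself gave 0.13 with control siRNA and -0.10 with FOXL2 siRNA, neither called (limma adjusted p = 1.0 for both).

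Both Smo probes were well above background on all 8 arrays and lower in the arrays labelled as FOXL2 siRNA. The bright probe, A_51_P258766, differed by -0.46 over both treatments (limma adjusted p = 0.0141) and the dim one, A_55_P2121484, by -0.37 (limma adjusted p = 0.0981), which was not called alone. The call with E2 was lost in 6 of the 8 fits that left out 1 array, the exceptions being those without either array of the FOXL2 vehicle group, and its adjusted p reached 0.253 without replicate 2 of the FOXL2 E2 group. It was lost in the same other settings as that of Dhh (limma adjusted p = 0.0733, 0.109 and 0.0658). That over both treatments was lost without replicate 1 of the control E2 group (-0.45, limma adjusted p = 0.0503). The summed scaled signal of the theca markers was lower in the arrays labelled as FOXL2 siRNA, at 99531 to 118417 with vehicle against 138857 to 148543, and at 102333 to 120412 with E2 against 124737 to 126878. Of the 5 theca markers tested 1 was higher over both treatments, Cyp11a1, which rose by 0.89 (limma adjusted p = 0.000195), and 1 was lower, Hsd3b1, which fell by 0.69. The sum follows Hsd3b1, which gave 58.1 to 83.9% of it. Without Hsd3b1 the sum was higher in the arrays labelled as FOXL2 siRNA, at 40803 to 41708 with vehicle against 23927 to 24287, and at 39267 to 39877 with E2 against 21275 to 22392, and the median change of the 5 theca markers was 0.47. The part of theca cells in the change of Smo was not tested.

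**Figure D2:**
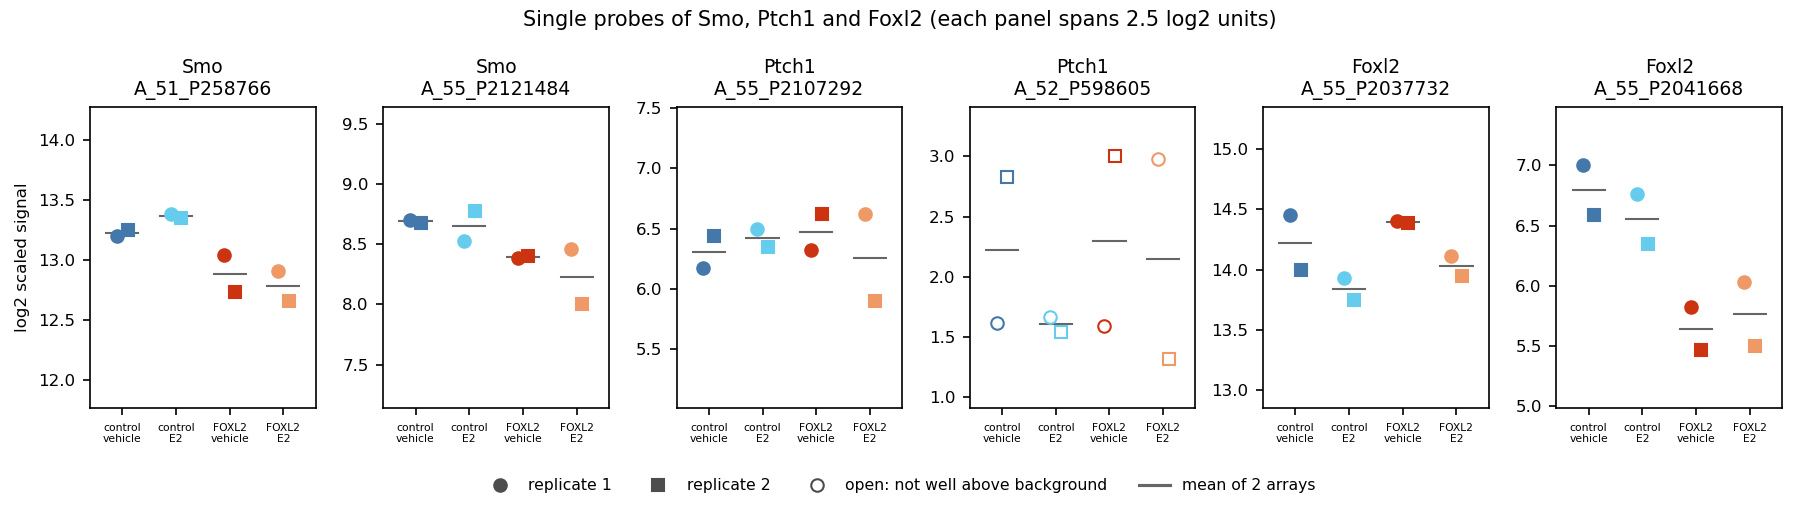
Log2 scaled signal of each probe of Smo, Ptch1 and Foxl2 on the 8 arrays, with open symbols for values not well above background and bars for the mean of 2 arrays. Both Smo probes lie lower in the arrays labelled as FOXL2 siRNA, 1 of the 2 Ptch1 probes was detected, and only the dimmer Foxl2 probe is lower in those arrays.

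Of the GLI factors, which carry the signal to the genome, Gli3 (Entrez 14634), known mainly as a repressor when the pathway is off, was the only one well above background on all 8 arrays. Its log2 signal lay between 9.07 and 9.64 over the 8 arrays. The lowest array was replicate 2 of the FOXL2 vehicle group, and the groups overlapped. Its siRNA effects were -0.15 with vehicle (95% interval -0.59 to 0.29) and -0.04 with E2 (95% interval -0.48 to 0.40), with limma adjusted p of 0.753 and 0.947. Gli1 (Entrez 14632), the target gene most used as a readout, lay between 1.59 and 4.24 and was well above background only in replicate 2 of the FOXL2 E2 group, on 1 of its 2 probes. Gli2 (Entrez 14633), the main activator, lay between 1.52 and 4.07 and did not exceed that level on any array. For neither of these can a level or a fold be given.

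Among the inhibitors, Sufu (Entrez 24069), which retains GLI proteins in the cytoplasm, lay between 5.66 and 5.94 over the 8 arrays, the narrowest range of the 9 members. Its siRNA effects were 0.02 with vehicle (95% interval -0.42 to 0.45, limma adjusted p = 0.976) and -0.06 with E2 (95% interval -0.50 to 0.37, limma adjusted p = 0.912), and its 2 probes differed in sign in several comparisons. Singly, A_52_P603184 lay between 5.42 and 6.17 and A_51_P396550 between 5.65 and 6.05, each a wider range than that of their mean. Hhip (Entrez 15245), a cell-surface protein that captures ligand, lay between 1.40 and 3.16. It was well above background only in replicate 1 of the FOXL2 E2 group, on 1 of its 2 probes, while the other replicate of that group held the lowest value of the 8.

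**Figure D3:**
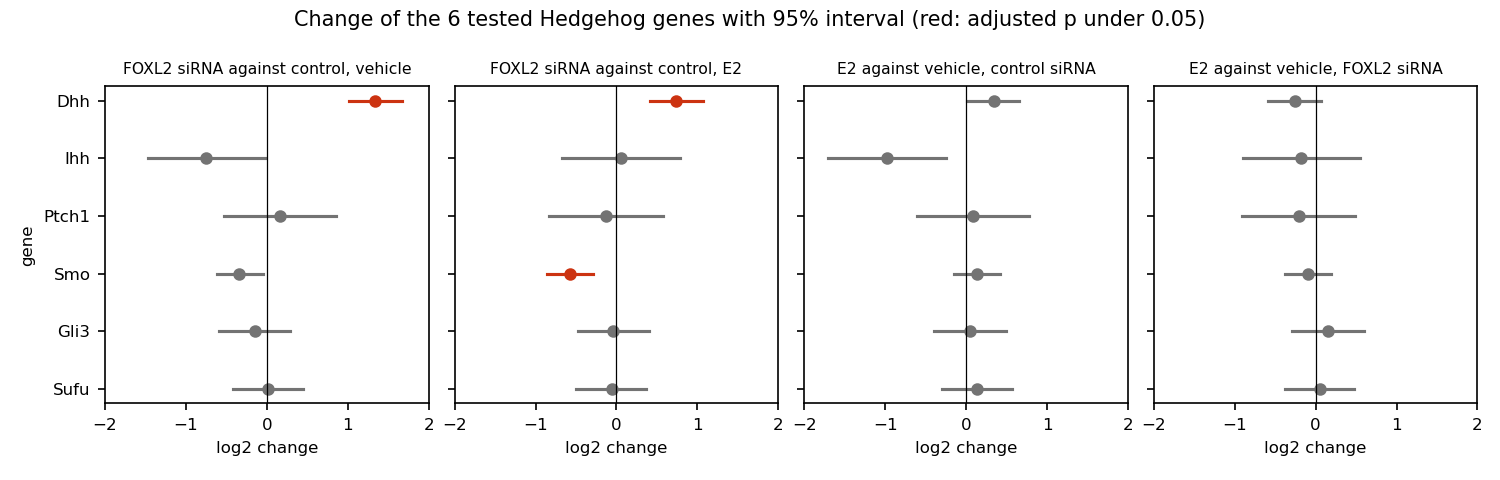
Change of the 6 tested genes on the log2 scale in each of 4 comparisons, with the 95% interval of the limma fit over all 8 arrays and red for an adjusted p under 0.05. Dhh lies at 1.34 and 0.74 in the siRNA comparisons and Smo at -0.34 and -0.57, and no gene is red in the E2 comparisons.

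The calls among the members were of Dhh and Smo. With vehicle, 1 of 6 tested members was called by limma, where 6.56% of all 15637 genes tested were. With E2 it was 2 of 6, where 4.39% of all genes were, and over both treatments 2 of 6, where 12.6% were. The medians of the 6 changes were -0.07, -0.05 and -0.06, and those of all genes tested -0.01, 0.0 and 0.0. Arrays of the siRNAs did not overlap for 2 of the 6 members, where 20.9% of all genes tested showed this. With 6 members, these shares are counts of Dhh and Smo, and say nothing of the set.

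No member passed the test for E2. With control siRNA, limma called 0 of 6 members and 0.0192% of all genes, and 2 members had an unadjusted p under 0.05, Dhh and Ihh. With FOXL2 siRNA it called 0 of 6 members and 0.0128% of all genes, and 0 members had an unadjusted p under 0.05. The difference between the E2 effects gave 0 of 6 members and 0.243% of all genes, with 1 member, Dhh, at an unadjusted p under 0.05. Under the rule in the methods of the study, which asks that group means differ by 1 or more in log2 and by over 2 times the summed SDs, 1 of 6 members passed with vehicle. It was Dhh, and 2.94% of all genes passed there. With E2, 0 members passed for the siRNA effect (2.35% of all genes), as did 0 for E2 with control siRNA (0.454%) and 0 for E2 with FOXL2 siRNA (0.217%).

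A further 47 genes of the pathway were listed, and 38 of them were tested. Over both treatments, 3 of the 38 were higher and 2 lower in the arrays labelled as FOXL2 siRNA, which is 13.2% against 12.6% of all genes. With vehicle and with E2, 1 was higher and 1 lower in each, 5.26% against 6.56% and 4.39%. For E2, limma called 0 of the 38 with either siRNA, and 2 and 3 of them had an unadjusted p under 0.05. It called only 0.0192% of all genes with control siRNA and 0.0128% with FOXL2 siRNA, so these counts cannot show that E2 left the 38 unchanged. In the siRNA comparisons the list as a whole was thus called about as often as any genes.

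Of 7 genes for other ligands and ligand release, 5 were tested. Shh, the ligand best known from the embryo, was well above background on 0 of 8 arrays, and so was Disp2. Scube1, a secreted protein of a family that helps release ligand, gave 7.92 and 7.80 in the control vehicle group and 7.04 and 6.44 in the FOXL2 vehicle group. It fell by 1.12 with vehicle (SE 0.21, limma adjusted p = 0.0197) and by 0.61 over both treatments (SE 0.15, limma adjusted p = 0.0327), whereas with E2 the change was -0.10 (limma adjusted p = 0.871). The vehicle call was lost without either array of the control vehicle group or without replicate 2 of the FOXL2 vehicle group, and the call over both in 7 of 8 fits that left out 1 array. The vehicle call was also lost with only the groups compared (limma adjusted p = 0.0708), and that over both with no filter and with no intensity trend (limma adjusted p = 0.068 and 0.0555).

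Of 6 co-receptors and related genes, 4 were tested and 0 were called by limma in any comparison, while 2 had an unadjusted p under 0.05 for the siRNA effect over both treatments. These were Cdon and Boc, which bind ligand beside Ptch1. The difference for Cdon was 0.58 over both treatments (limma adjusted p = 0.119), and for Boc it was -0.36 (limma adjusted p = 0.117) and -0.74 with vehicle (limma adjusted p = 0.0527). With the replicate number as a block, limma called Cdon and Boc over both treatments (adjusted p = 0.000209 and 0.0111) and Boc with vehicle (adjusted p = 0.00137), and Boc with vehicle was also called with normexp (limma adjusted p = 0.0404) and without replicate 1 of the control vehicle group (-0.95, limma adjusted p = 0.0441). For Gas1, another co-receptor, the difference over both treatments was 0.12 (limma adjusted p = 0.77). All 19 genes of the transduction and cilium list were well above background on 8 arrays and tested, with 0 called by limma in each of the 6 comparisons. Over both treatments 6 of the 19 had an unadjusted p under 0.05, where 4195 of all 15637 genes did, and their median change was -0.04.

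Of 15 genes listed as downstream of the pathway, 10 were tested, and over both treatments 3 rose and 1 fell, which is 40.0% against 12.6% of all genes. As markers, the ones that moved are not specific to Hedgehog signalling, and its part in their change was not tested. Ccnd1 and Ccnd2 encode D-type cyclins, which drive entry into the cell cycle. Ccnd2 gave 13.02 and 13.06 in the control vehicle group and 13.77 and 14.25 in the FOXL2 vehicle group, and rose by 0.88 over both treatments (SE 0.13, limma adjusted p = 0.00438). Ccnd1 rose by 1.58 over both (SE 0.33, limma adjusted p = 0.0186), a call that was lost without replicate 1 of the control E2 group (limma adjusted p = 0.0685), without replicate 2 of the control vehicle group or without replicate 2 of the FOXL2 vehicle group. Hsd17b7, an enzyme of sterol and estradiol synthesis, rose by 0.71 (SE 0.12, limma adjusted p = 0.00918). Foxm1, a forkhead factor of dividing cells, fell by 0.56 (SE 0.09, limma adjusted p = 0.00791). The calls of Ccnd2, Hsd17b7 and Foxm1 over both treatments held in each of the 8 fits that left out 1 array. Foxf2, Foxl1 and Osr2 were well above background on 0 arrays.

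**Figure D4:**
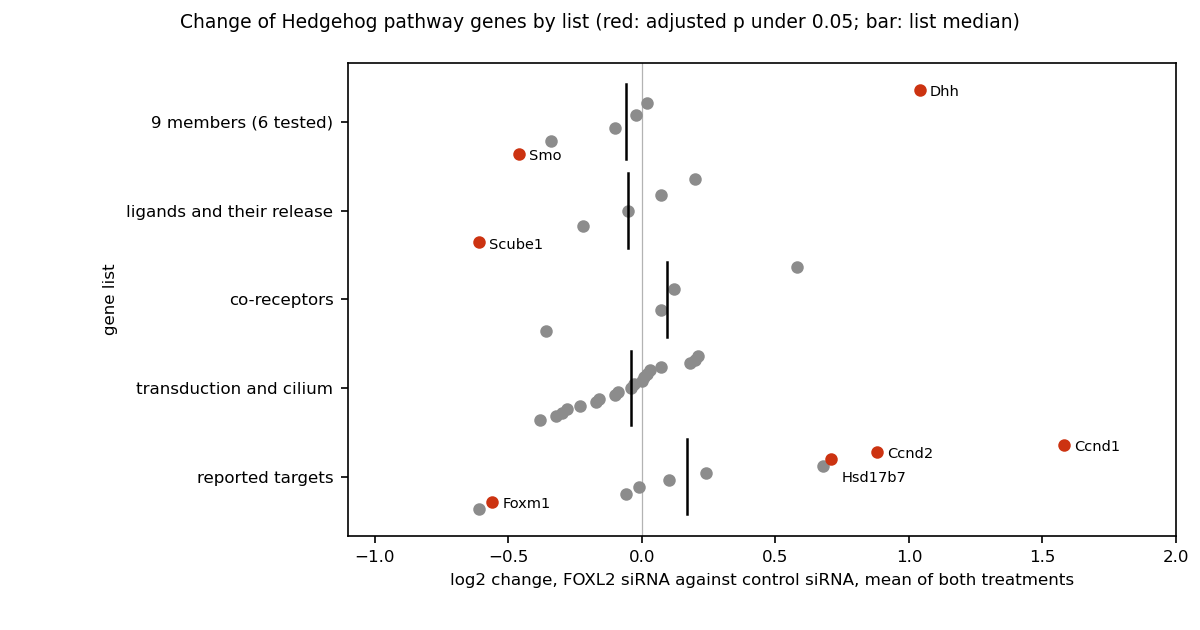
Log2 change of each tested gene between arrays labelled as FOXL2 siRNA and control siRNA, mean of both treatments, by gene list, with red for an adjusted p under 0.05 and a bar for the list median. Dhh at 1.04 and Ccnd1 at 1.58 lie farthest to the right, and the 19 transduction and cilium genes lie around 0 with none called.

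**Figure D5:**
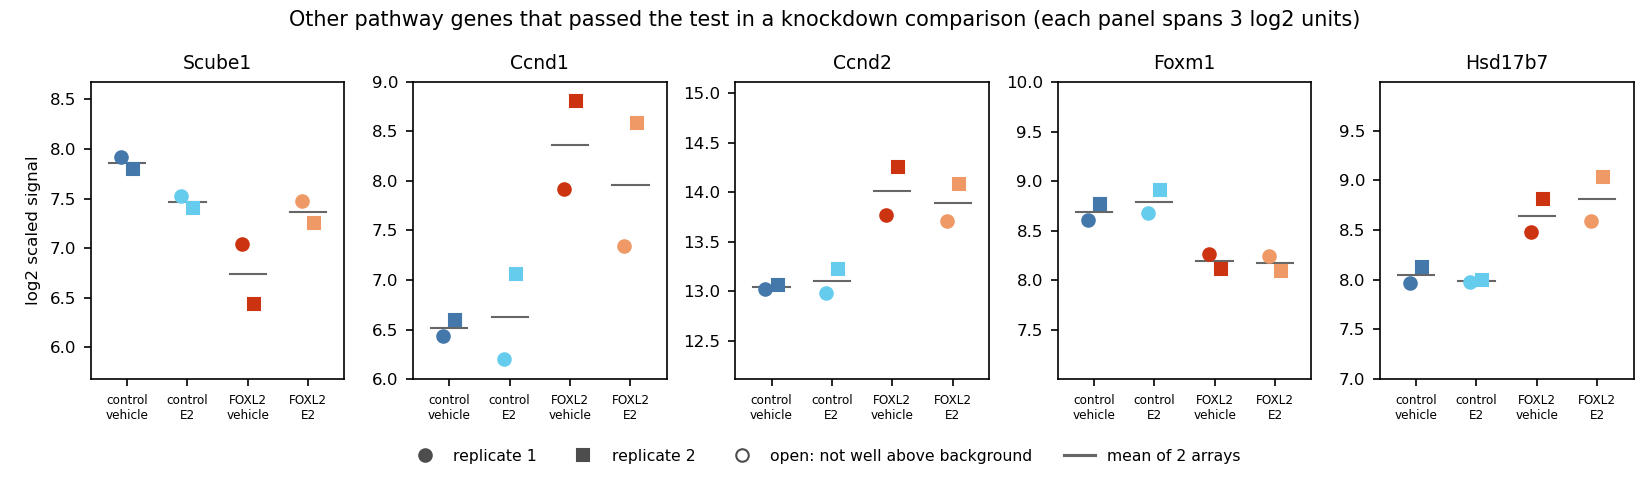
Log2 scaled signal on each array of the 5 other pathway genes called in a siRNA comparison, with circles for replicate 1, squares for replicate 2 and a bar for the mean of 2 arrays. Ccnd1, Ccnd2 and Hsd17b7 lie higher and Foxm1 lower on all 4 arrays labelled as FOXL2 siRNA, while Scube1 is lower there mainly with vehicle.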

How the data were processed

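Follicular cell RNA (50 ng) was amplified, Cy3-labelled and hybridised to 8 one-colour Agilent mouse arrays on 1 slide, read in 1 scan, which leaves neither as a batch to test. The deposited scanner files hold spot intensity from Agilent Feature Extraction version 11.5.1.1, background-subtracted by the software. The authors' deposited table holds log2 values scaled to the 75th percentile, and served as an alternative. According to the methods a median was also subtracted per replicate, which was left out here.

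Control spots (3671 of 62976) and 42 non-uniform probes were left out, and 0 probes were saturated. Intensities of each array were scaled to the 75th percentile (275.1 to 367.5), and 51.4 to 55.6% of probes were well above background. Probes of an Entrez ID were averaged, and 15637 of 24232 genes with a median of at least 10 were kept. Symbols came from RefSeq (22349 matched). Groups and replicate numbers came from the sample titles. Replicates are described as cells of different animals, grown independently. Array number limits precision.

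All 8 arrays were fitted as 4 group means with limma 3.58.1 (R 4.3.3, intensity trend), two-sided, with Benjamini-Hochberg adjustment over all genes kept and a threshold of 0.05. Simulated data were made for the siRNA effect over both treatments (15637 genes). In them, 83% of changes of 1 and 98% of changes of 2 on the log2 scale were recovered. The simulated noise was independent between arrays, and few genes were changed. These rates thus need not hold for the real arrays or for a single treatment. Alternatives were normexp, quantile normalization, no filter, a detection filter, the brightest probe, no intensity trend, only the groups compared, a replicate block, the authors' table and leaving out each array, and, added after the data were seen, single probes. The 9 members, the gene lists and the naming rule (all members, every other pathway gene called, Shh, Gas1, Cdon and Boc, and 10 markers) were chosen with earlier results of these data known, and 1 other gene under that rule is not reported here. Markers named outside it, and the theca, stromal and Sertoli sums without their brightest genes, were chosen after their values were seen. Plots were made with Python 3.11.15 and matplotlib 3.10.9.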

Additional observations from a re-analysis of the deposited data

How the results depend on the processing

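Of 600 values of the 6 tested members under the settings fixed at the start, 539 kept their direction and their side of the threshold, 3 gained and 16 lost a call, and 42 changed sign. None of the sign changes was of a called value. The count of members called with E2 fell from 2 to 0 without the filter, without the intensity trend and with only the groups compared, and lay between 0 and 2 when 1 array was left out. Over both treatments it lay between 1 and 2 when 1 array was left out. The cause was not tested. Same-numbered arrays deviated together (correlations of 0.33 to 0.44 over the 6 pairs of groups), though the labels do not say that a number marks a shared batch. With a replicate block, 3 members were called with vehicle (Dhh, Ihh and Smo, limma adjusted p = 1.48e-06, 0.0285 and 0.0294) and 1 for the difference of E2 effects (Dhh, limma adjusted p = 0.0294), and all genes called rose from 1026 to 2928 with vehicle, from 686 to 2329 with E2 and from 1967 to 4326 over both. All genes called for E2 rose from 3 to 182 with control siRNA and from 2 to 96 with FOXL2 siRNA. For the difference of E2 effects they rose from 38 to 332. With no intensity trend, 633 genes were called with vehicle and 379 with E2, and with only the groups compared, 585 with vehicle. Leaving out 1 array gave as few as 309 with vehicle, 130 with E2 and 1181 over both.

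Sign changes of values near 0 were these. With normexp, Sufu gave 0.01 (siRNA, E2), 0.02 (siRNA, both), -0.03 (E2, control siRNA) and -0.05 (E2, FOXL2 siRNA), and with its brightest probe, or that probe alone, 0.12, 0.06 and -0.12 in the first 3 of these and 0.12 for the difference of E2 effects. Quantile normalization turned Ihh (siRNA, E2) to -0.03, and the dim Smo probe gave -0.03 for E2 with control siRNA. Leaving out 1 array gave these ranges. For the siRNA effect with vehicle, Ptch1 ranged from -0.02 to 0.34, Gli3 from -0.40 to 0.10 and Sufu from -0.06 to 0.09. With E2, Ihh ranged from -0.14 to 0.26, Ptch1 from -0.52 to 0.26, Gli3 from -0.21 to 0.13, Sufu from -0.18 to 0.05 and Scube1 from -0.21 to 0.01. Over both, Ptch1 ranged from -0.18 to 0.21, Gli3 from -0.22 to 0.03, Sufu from -0.08 to 0.03 and Gas1 from -0.03 to 0.27. For E2 with control siRNA, Ptch1 ranged from -0.08 to 0.25 and Gli3 from -0.07 to 0.16. With FOXL2 siRNA, Ihh ranged from -0.38 to 0.02, Ptch1 from -0.60 to 0.18, Smo from -0.24 to 0.05, Gli3 from -0.09 to 0.40 and Sufu from -0.07 to 0.17. For the difference of E2 effects, Ptch1 ranged from -0.68 to 0.09, Gli3 from -0.14 to 0.35 and Sufu from -0.20 to 0.04. With no filter, Gli1, Gli2 and Hhip were called in 0 of 18 limma values, of which 2, both of Gli1, had an unadjusted p under 0.05. Signal over background limits these 3 genes, and 2 arrays a group limit all of them.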
